A study of Arabidopsis thaliana with 12 samples.

Results

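The cinnamyl alcohol dehydrogenase (CAD) genes of Arabidopsis thaliana were followed in whole seedlings of the mutants pkl, clf and lhp1 and of wild type (WT), all sampled at 14 days. The members were the 9 genes CAD1 to CAD9, taken by their identifiers from 33553 genes named in the deposited tables. CAD2 (AT2G21730) was included because of its high value in pkl, so that value is given as a description with no test. The titles give 3 libraries for each of the 4 genotypes, 12 in all, and nothing in the labels says whether they came from separate growth batches. The labels name neither the alleles nor the background strain. All plants were cultured alike, at 22 °C in long days of 16 h light, on Murashige and Skoog medium.

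PKL encodes PICKLE, a chromatin remodeller of the CHD3 class. CLF encodes CURLY LEAF, which methylates histone H3 to give the Polycomb mark H3K27me3, and LHP1 is a reader of the same mark. By its title, the series is about PICKLE and how H3K27me3 spreads. CAD enzymes are zinc-dependent, NADPH-using dehydrogenases. They reduce cinnamaldehydes, such as coniferaldehyde and sinapaldehyde, to the alcohols (monolignols) that are polymerised into lignin in xylem, fibres and the root endodermis. CAD4 and CAD5 are the main lignin enzymes of the Arabidopsis stem, while relatives in the same family act on other aldehydes or are little studied.

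Each table gives 1 FPKM value per genotype and locus, the authors' value, so no level carries a replicate error and the depth is unknown. FPKM scales fragments to transcript length and to the mapped total, so levels of different genes can be set side by side. A locus was called where the authors' deposited test was run and its q was under 0.05, and "rose" and "fell" are used for such calls. In its own mutant, PKL stood at 6.83 FPKM in pkl and 20.8 in WT, CLF at 0.264 in clf and 8.37 in WT, and LHP1 was listed at 0 in lhp1 and at 12.1 in WT; CLF missed the threshold, with q = 0.0520 in the authors' deposited table. Leaf, root and xylem markers were present in every genotype, in the order pkl, clf, lhp1 and WT, with RBCS1A at 14257, 10608, 9334 and 13319 FPKM, the endodermal gene CASP1 at 38.5, 31.1, 44.6 and 47.7, and the secondary wall gene CESA7 at 6.63, 7.99, 8.19 and 5.27.

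The 9 genes fall in 9 loci of the tables, but not 1 each. CAD7 (AT4G37980) and CAD8 (AT4G37990) share 1 locus, so their values cannot be separated. CAD1 (AT1G72680) is split over a pair of loci with the same span, and the higher of them was used in the counts. The loci of CAD3 (AT2G21890) and CAD9 (AT4G39330) have the same span as a locus of another gene, AT2G21895 and AT4G39340. That leaves 7 genes with a locus of their own for counting.

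CAD2 and CAD3 are near copies of each other, which bears on every value of that pair. Their coding sequences on TAIR10.1 are 98.8% identical, with 14 differing bases of 1128 aligned, and 363 bases in a row are the same. Of 1010 aligned coding windows of 60 bases, 562 show no difference. The copy reaches past the genes: a block of 2513 aligned columns, 95.7% identical, covers chr2:9279749-9282259 around CAD2 and chr2:9330799-9333251 around CAD3. The 60-base coding windows with the most differences are shown here, 5′ to 3′, with the 4 bases that differ in capitals. They lie at coding positions 768 to 827 of CAD2 and 765 to 824 of CAD3.
CAD2: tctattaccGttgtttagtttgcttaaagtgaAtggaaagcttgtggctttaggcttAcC
CAD3: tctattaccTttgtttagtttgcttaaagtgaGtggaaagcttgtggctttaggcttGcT

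Part of the sequence before the genes is shared as well. Within the 250 bases before each annotated start, a stretch of 174 bases aligned without a gap and with 3 mismatches. It lies at chr2:9279757-9279930 for CAD2 and chr2:9330808-9330981 for CAD3 on TAIR10.1, plus strand, and is shown because these are the members that stood highest over WT in pkl. The stretch ends next to the annotated start of CAD2 (9279931) but short of that of CAD3 (9331058). The 250-base windows of the copies are therefore offset from each other, and their edges set the length of the stretch. Further before CAD2, chr2:9279304-9279755 and chr2:9278933-9279286 aligned with sequence before CAD3 at 93.4% and 92.3% identity. Capitals mark the differing bases.
CAD2 upstream: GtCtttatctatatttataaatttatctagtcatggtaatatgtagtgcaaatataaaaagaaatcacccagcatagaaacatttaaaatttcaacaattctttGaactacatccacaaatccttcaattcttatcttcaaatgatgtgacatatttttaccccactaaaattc
CAD3 upstream: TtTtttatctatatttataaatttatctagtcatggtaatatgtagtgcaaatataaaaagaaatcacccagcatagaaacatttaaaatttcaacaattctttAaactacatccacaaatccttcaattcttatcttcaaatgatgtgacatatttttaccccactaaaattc

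CAD7 and CAD8, which share a locus in the tables, are less alike than CAD2 and CAD3. They are 84.5% identical over 1074 aligned coding bases, their longest identical run is 31 bases, and 0 of 1015 windows of 60 bases are without a difference. Their most different window, at coding positions 316 to 375 in each, has 24 differing bases, in capitals.
CAD7: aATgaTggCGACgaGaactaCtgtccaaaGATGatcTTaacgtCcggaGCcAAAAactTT
CAD8: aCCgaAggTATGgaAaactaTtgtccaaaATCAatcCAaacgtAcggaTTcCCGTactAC

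**Figure D1:**
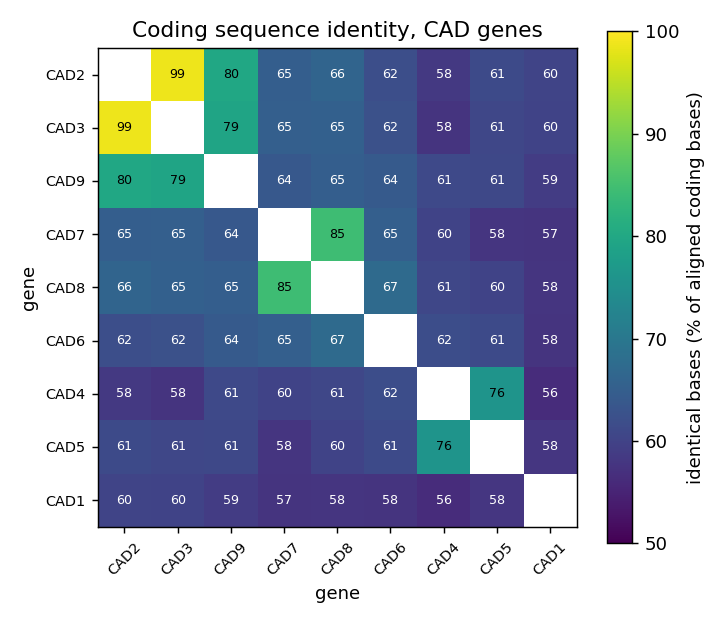
Percent of identical bases over aligned coding bases for each pair of the 9 CAD genes on TAIR10.1, both axes listing genes; the colour scale runs from 50 to 100%. CAD2 and CAD3 stand at 99%, CAD7 and CAD8 at 85%, CAD2 and CAD9 at 80%, and CAD4 and CAD5 at 76%.

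Among the 36 pairs, 5 reach 70% coding identity: the pairs within CAD2, CAD3 and CAD9, CAD7 with CAD8, and CAD4 with CAD5 at 75.9%. The other 31 pairs lie between 56.4% and 67.3%. No other member had a stretch of at least 100 bases at 90% identity or more elsewhere in the nuclear genome; CAD2 and CAD3 had each other. The genes have 4 to 6 exons and coding lengths of 1068 to 1131 bases.

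In WT seedlings the family spans a wide range of levels. CAD4 stood at 95.1 FPKM, CAD9 at 75.1, CAD5 at 63.0 and the CAD7/CAD8 locus at 61.5. The CAD1 loci stood at 28.7 and 8.27, CAD6 at 2.15, CAD3 at 0.594 and CAD2 at 0.281. Whether neighbours in this order differ cannot be told, since the levels carry no spread. CAD4 ranked above 93.8% of named loci in WT and CAD2 above 38.4%. CAD4 and CAD5 together made up 55.4% of the family's summed FPKM in pkl, 35.1% in clf, 40.6% in lhp1 and 47.2% in WT. The family sum was 396 FPKM in pkl, 484 in clf, 496 in lhp1 and 335 in WT.

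**Figure D2:**
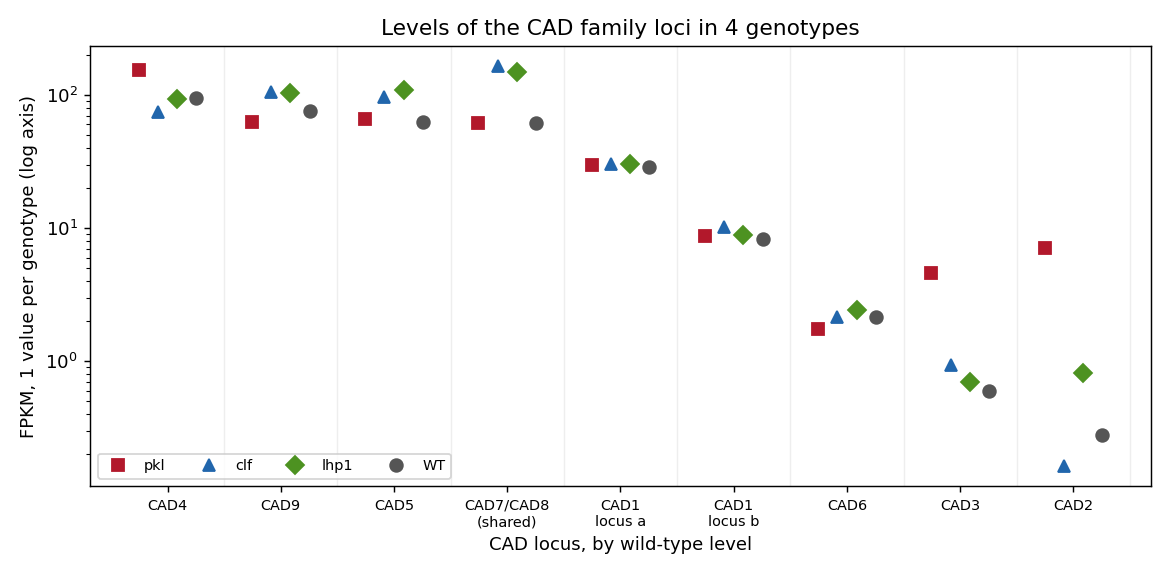
FPKM on a log axis for each CAD locus, with 1 point per genotype (pkl, clf, lhp1 and WT from left to right) and loci ordered by the WT level; there are no error bars because the tables give 1 value per genotype. CAD2 and CAD3 stand far higher in pkl (7.10 and 4.62) than in the other genotypes, and CAD7/CAD8 higher in clf (165) and lhp1 (148).

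The lignin enzyme genes CAD4 and CAD5 differed in where they were called: CAD4 rose in pkl and fell in clf, and CAD5 rose in clf and lhp1. CAD4 (AT3G19450, chromosome 3, 6744598 to 6747214 on TAIR10) stood at 154 FPKM in pkl, 74.1 in clf, 92.9 in lhp1 and 95.1 in WT. It was highest in pkl and lowest in clf. CAD4 rose 1.62-fold in pkl (q = 0.000661) and fell to 0.779 of WT in clf (q = 0.0196), by the authors' deposited tables. The call in clf is lost at a q under 0.01. In lhp1 it was not called, at 0.977 of WT, and the 95% interval implied by the deposited p runs from 0.828 to 1.15. In whole seedlings, a change in the share of cells that express a gene and a change in RNA per cell cannot be told apart.

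CAD5 (AT4G34230, chromosome 4, 16386719 to 16388722) stood at 65.9 FPKM in pkl, 95.8 in clf, 109 in lhp1 and 63.0 in WT. The clf and lhp1 values lie above those of pkl and WT. CAD5 rose 1.52-fold in clf and 1.73-fold in lhp1, with q = 0.000661 for each in the authors' deposited tables. In pkl it was not called, with a fold of 1.05 and an implied 95% interval from 0.883 to 1.24. The ratio of CAD4 to CAD5 was 2.33 in pkl, 0.774 in clf, 0.854 in lhp1 and 1.51 in WT. CAD4 was thus the higher of the pair in pkl and WT, and CAD5 in clf and lhp1. The 3 comparisons share the WT value, and differences between mutants were not tested.

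CAD6, CAD7 and CAD8 lie side by side on chromosome 4. CAD7 and CAD8 are the ELI3 genes, known as genes switched on by pathogens and elicitors, and CAD6 is little studied. The shared CAD7/CAD8 locus (17852441 to 17857639) stood at 61.7 FPKM in pkl, 165 in clf, 148 in lhp1 and 61.5 in WT. It was high in clf and lhp1, and the pkl value lay beside that of WT. The locus rose 2.68-fold in clf and 2.40-fold in lhp1, each with q = 0.000661 in the authors' deposited tables, while in pkl the fold was 1.00 with an implied 95% interval from 0.843 to 1.20.

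CAD6 (AT4G37970, 17849648 to 17852271), which ends just before that locus, stood at 1.73 FPKM in pkl, 2.15 in clf, 2.43 in lhp1 and 2.15 in WT. None of these was called, with q values of 0.589, 0.995 and 0.781 in the authors' deposited tables. The implied 95% intervals of the CAD6 fold run from 0.539 to 1.21 in pkl, 0.674 to 1.49 in clf and 0.775 to 1.65 in lhp1. In clf and lhp1 the upper ends lie below the 2.68-fold and 2.40-fold of the neighbouring locus, which have no interval of their own. The difference between these loci was not tested. The nearest tested loci on either side, AGL21 before CAD6 and AT4G38010 after CAD8, were not called in any mutant; AGL21 stood at 2.40, 4.34 and 4.74 FPKM in pkl, clf and lhp1 and at 2.81 in WT. The untested neighbours AT4G37950 and DOF4.7 stood at no more than 0.104 FPKM in any genotype.

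CAD9 (AT4G39330, chromosome 4, 18291218 to 18293512), the member nearest in sequence to CAD2 and CAD3, stood at 63.0 FPKM in pkl, 105 in clf, 104 in lhp1 and 75.1 in WT. It was highest in clf and lhp1 and lowest in pkl. CAD9 rose 1.40-fold in clf and 1.39-fold in lhp1, with q = 0.000661 for each in the authors' deposited tables. The pkl value was 0.839 of WT and was not called (q = 0.161 in the authors' deposited table). AT4G39340, an egg cell-secreted-like gene in a locus of the same span, reached at most 1.05 FPKM, so it is small beside CAD9.

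CAD2 (AT2G21730, chromosome 2, 9280044 to 9281623) stood at 7.10 FPKM in pkl, 0.163 in clf, 0.812 in lhp1 and 0.281 in WT. The pkl value, 25.3 times that of WT, is the value for which the gene was chosen. The WT level is low, so the size rests on the pseudocount: the log2 fold is 4.66 with none, 4.24 with 0.1 FPKM added and 2.66 with 1 FPKM added. In lhp1 the CAD2 fold was 2.89, with q = 0.0763 in the authors' deposited table, so it was not called. The unadjusted p of 0.0146 implies a 95% interval from 1.23 to 6.78. In clf the authors' test of CAD2 was not run.

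CAD3 (AT2G21890, chromosome 2, 9331015 to 9333336) stood at 4.62 FPKM in pkl, 0.930 in clf, 0.700 in lhp1 and 0.594 in WT. Like its copy, it was high in pkl alone among these values. It was called higher in pkl, by 7.79-fold, and the q in the authors' deposited table was 0.000661. CAD3 was not called in clf, with a fold of 1.57 and an implied 95% interval from 0.850 to 2.88, nor in lhp1, with 1.18 and an interval from 0.622 to 2.24. AT2G21895, in a locus of the same span, stood at 0.434 FPKM in WT and was listed at 0 in each mutant. That WT value is not small beside the 0.594 of CAD3. All the CAD3 folds may therefore depend on how reads in that span were divided, which is not stated.

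How reads that match both CAD2 and CAD3 were divided is not stated, so their separate values, and the CAD3 call, are uncertain. The sum of the pair is given as a description, since most of its pkl value is the CAD2 value for which the gene was chosen. It was 11.7 FPKM in pkl, 1.09 in clf, 1.51 in lhp1 and 0.875 in WT, which is 13.4, 1.25 and 1.73 times WT. CAD2 held 60.6% of the sum in pkl, 14.9% in clf, 53.7% in lhp1 and 32.1% in WT. Even in pkl the pair made up 2.96% of the family's summed FPKM, against 0.261% in WT.

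CAD1, whose highest coding identity to another member is 60.2%, was not called in any mutant. Its higher locus (chromosome 1, 27359104 to 27361016) stood at 29.6 FPKM in pkl, 30.1 in clf, 30.3 in lhp1 and 28.7 in WT, and its lower locus at 8.77, 10.2, 8.80 and 8.27. The implied 95% intervals of the fold at the higher locus run from 0.844 to 1.26 in pkl, 0.855 to 1.29 in clf and 0.864 to 1.29 in lhp1.

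**Figure D3:**
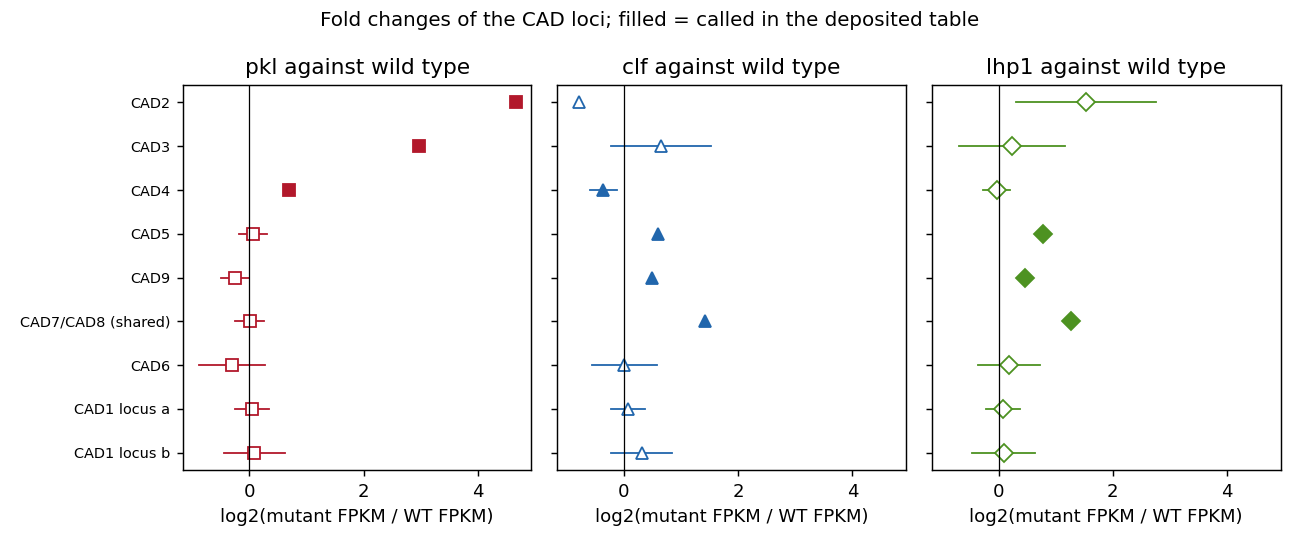
Log2 of mutant FPKM over WT FPKM for each CAD locus in pkl, clf and lhp1; filled points were called at q under 0.05, and lines are 95% intervals implied by the deposited p, absent where p is at its floor of 5e-05 or no test was run. In pkl CAD3 and CAD4 are called, and CAD2, also filled, is the gene chosen for its pkl value, while CAD5, CAD9 and CAD7/CAD8 are called higher in both clf and lhp1 and CAD4 is called lower in clf.

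Counted over the 7 genes with a locus of their own, 3 rose and 0 fell in pkl, beside a background of 6.71% called higher and 6.75% called lower over all 19365 tested loci. CAD2 was chosen on that comparison, so nothing is read from this count. At an unadjusted p under 0.05 in the authors' deposited tables, 1 member was lower in pkl, CAD9, and 0 were lower in lhp1. In clf 2 rose and 1 fell of 6 tested, beside 7.15% called higher and 5.28% called lower over 19370. In lhp1 2 rose and 0 fell of 7 tested, beside 11.1% called higher and 10.6% called lower over 19509. The median log2((mutant FPKM + 1)/(WT FPKM + 1)) of the 7 was 0.06 in pkl, 0.07 in clf and 0.12 in lhp1, beside 0.01, -0.01 and 0.03 over all tested loci. None of the clf and lhp1 calls among the 7 reached 2-fold.

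The neighbourhood of CAD2 and CAD3 was read next. The 2 loci before CAD2 and the 2 after it, among them the egg cell genes EC1.2 and EC1.3, were listed at 0 in all 4 genotypes. Before CAD3, the locus shared by AT2G21860 and MGP1 (AT2G21870) was not called in any mutant, and RAB7A stood at 7.78 FPKM in pkl, 7.17 in clf, 4.99 in lhp1 and 7.33 in WT and was not called either. After it, AT2G21905 was listed at 0 throughout, and WRKY59 stood at 0.0464, 0.162, 1.15 and 0.298 in the same order and was not called in lhp1, where alone it was tested. A gap of 49.4 kb separates CAD2 from CAD3, with 14 named loci in it. In pkl 2 of the 9 tested among them rose and 0 fell, beside 6.71% and 6.75% over all tested loci. They were the cellulose synthase gene AT2G21770 (CESA9), at 1.21 FPKM in pkl and 0.598 in WT, and AT2G21830, at 7.54 in pkl and 4.83 in WT. In clf 1 of 10 rose, again AT2G21770, at 1.06 in clf and 0.598 in WT, and in lhp1 1 of 10 rose, AT2G21840, at 6.29 in lhp1 and 3.86 in WT. The shares called higher over all tested loci were 7.15% in clf and 11.1% in lhp1. From 30 kb before CAD2 to 30 kb after CAD3, the pair included, 21 loci were tested in pkl, where 4 rose and 2 fell. The falls were AT2G21640, at 8.45 FPKM in pkl and 19.3 in WT, and AT2G21660, at 2315 in pkl and 3164 in WT. In clf 1 of 21 rose and 1 fell, and in lhp1 1 of 23 rose and 1 fell. The fall in each was AT2G21650. AT2G21640, AT2G21650, AT2G21660, AT2G21770, AT2G21830 and AT2G21840 were named after their values were seen.

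**Figure D4:**
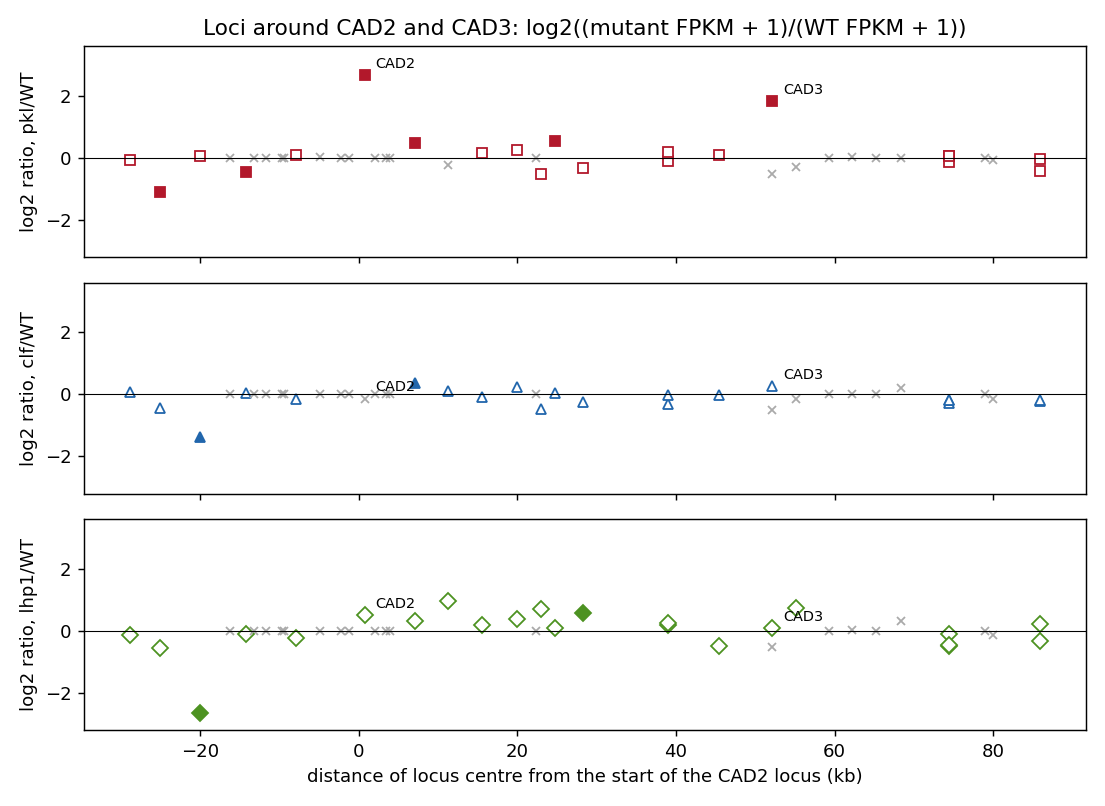
Log2((mutant FPKM + 1)/(WT FPKM + 1)) of each named locus from 30 kb before CAD2 to 30 kb after CAD3, by distance of its centre from the start of the CAD2 locus in kb, for pkl, clf and lhp1; filled points were called, open points tested and not called, grey crosses not tested. In pkl CAD2 (2.66) and CAD3 (1.82) stand above the loci between them, which lie between -0.53 and 0.55.

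Genes with the pattern nearest to CAD2 were sought by Euclidean distance over the 3 log2 ratios with 1 FPKM added, among 16714 other single-gene loci with at least 1 FPKM in some genotype. The nearest was AT1G11070, of a hydroxyproline-rich glycoprotein family, at a distance of 0.27, with 7.0 FPKM in pkl, 0.336 in clf, 0.901 in lhp1 and 0.245 in WT. AT3G29410, of the terpenoid cyclase superfamily, followed at 0.43, the tyrosine aminotransferase gene TAT3 (AT2G24850) at 0.49, AT5G26270 at 0.50 and the cysteine proteinase-type gene AT1G29110 at 0.52. TAT3 stood at 13.3 FPKM in pkl, 1.05 in clf, 3.85 in lhp1 and 1.54 in WT. CAD3 ranked 26th, at 1.02. These are likenesses over 3 ratios that share the WT value and carry no test.

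The rest of the lignin pathway was counted from a list of 38 genes, of which 34 have a locus of their own and 32 were tested in each mutant. In pkl 8 rose and 2 fell, beside 6.71% called higher and 6.75% called lower over all tested loci, with a median log2 ratio (1 FPKM added) of 0.21 over the list, beside 0.01 over all tested loci. The rises were 4 of 7 entry genes and 4 of 10 genes of the monolignol branch. Not every gene of these groups supplies the substrates of CAD. Among the rises was 4CL3, of another branch. REF1, for an enzyme that uses those substrates, is in the monolignol group and fell, at 133 FPKM in pkl and 172 in WT. PAL3, for a phenylalanine ammonia-lyase, stood at 32.3 FPKM in pkl and 16.7 in WT. 4CL3, for a coumarate-CoA ligase of the flavonoid branch, stood at 11.1 in pkl and 5.59 in WT. PAL2 stood at 87.7 in pkl and 60.6 in WT, and CSE, for caffeoyl shikimate esterase, at 147 in pkl and 103 in WT.

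F5H, for the hydroxylase that leads to sinapyl units, stood at 63.8 FPKM in pkl and 45.4 in WT and rose as well. The largest change on the list in pkl was a fall of PRX52, for a lignin-linked peroxidase, at 2.20 FPKM in pkl and 11.4 in WT. None of the 9 tested regulators and none of the 5 secondary wall and xylem markers with a locus of their own was called in pkl. The summed level of those 5 markers was 97.2 FPKM in pkl and 108 in WT. Of 4 root markers 1 rose in pkl, the root hair gene EXPA7, at 50.1 FPKM in pkl and 22.3 in WT. The part of tissue makeup in these changes was not tested.

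In clf 0 of the 32 tested pathway genes rose and 4 fell, beside 7.15% called higher and 5.28% called lower over all tested loci, with a median of -0.0028 beside -0.0063 over all tested loci. By the authors' deposited p unadjusted, under 0.05, 1 was higher and 4 were lower, and with the p adjusted within this table the number of falls was 2. REF1, for the aldehyde dehydrogenase that turns coniferaldehyde and sinapaldehyde into acids, stood at 111 FPKM in clf and 172 in WT. F5H stood at 35.5 in clf and 45.4 in WT, PAL1 at 95.9 in clf and 121 in WT, and ESB1, for a dirigent-type protein of the endodermal barrier, at 25.3 in clf and 33.1 in WT. CAD4 also fell in clf, whereas CAD5 and CAD9 rose. Of the secondary wall and xylem markers 1 of 5 rose, with a summed level of 133 FPKM in clf and 108 in WT. Of the 4 root markers 2 fell. The part of these tissues in the changes was not tested.

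In lhp1 9 of the 32 tested pathway genes rose and 3 fell, beside 11.1% called higher and 10.6% called lower over all tested loci, with a median of 0.26 beside 0.03 over all tested loci. The rises included 4 of 6 polymerisation genes. The laccase genes LAC17 and LAC11 stood at 16.0 and 20.9 FPKM in lhp1, against 7.36 and 12.5 in WT. MYB63, for an activator of lignin genes, stood at 4.60 in lhp1 and 1.84 in WT. C4H, for cinnamate hydroxylase, stood at 377 in lhp1 and 223 in WT, and PAL2 at 96.1 in lhp1 and 60.6 in WT. F5H went the other way, at 25.5 in lhp1 and 45.4 in WT. PAL3, at 11.1 in lhp1 and 16.7 in WT, and REF1, at 123 in lhp1 and 172 in WT, fell as well. Of the secondary wall and xylem markers 3 of 5 rose, with a summed level of 144 FPKM in lhp1 and 108 in WT. The locus that CESA4 shares with AT5G44020, left out of that sum, fell to 271 FPKM in lhp1, against 455 in WT. Of the 4 root markers 1 rose, PYK10, at 3479 FPKM in lhp1 and 1916 in WT. Of the 3 leaf markers with a locus of their own none was called in any mutant, and in lhp1 RBCS1A stood at 0.701, RCA at 0.770 and CAB3 at 1.38 of WT. The part of these tissues in the CAD5 and laccase values was not tested.

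**Figure D5:**
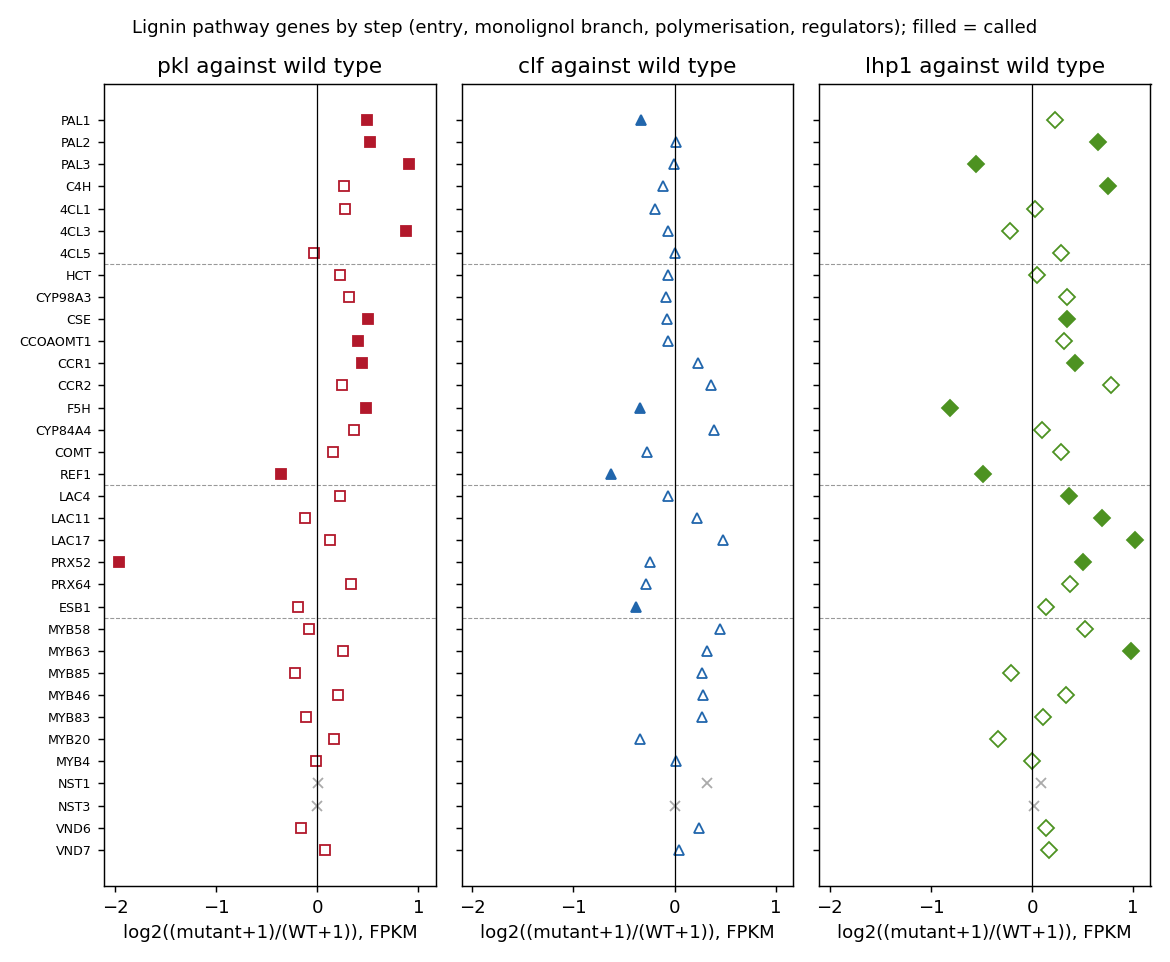
Log2((mutant FPKM + 1)/(WT FPKM + 1)) of the 34 lignin pathway genes with a locus of their own, in pkl, clf and lhp1, grouped by dashed lines into entry, monolignol branch, polymerisation and regulators; filled points were called, grey crosses not tested. Called entry and monolignol genes are higher in pkl except REF1, the 4 called genes in clf are lower, and 4 of 6 polymerisation genes are called higher in lhp1.

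The 250 bases before each annotated start were searched on both strands for 4 motifs. These were the AC element ACCNACC, known as a site of MYB factors in lignin genes, the telobox AAACCCTA and the repeat GAGAGA, both linked to Polycomb recruitment in plants, and the G-box CACGTG. The windows of CAD5 and CAD7 hold the AC element, as do 6.1% of 27443 promoters of protein-coding genes. CAD9 holds GAGAGA, as do 20.6% of promoters. The other 6 windows, those of CAD2 and CAD3 included, hold none of the 4. The telobox and the G-box, in 4.49% and 6.49% of promoters, are in no member's window. The windows of CAD1 and CAD7 overlap other genes, AT1G72690 and AT4G37970 (CAD6). All windows follow the RefSeq starts, which can differ from those of the FPKM loci, as for CAD4 (6744377 against 6744598). Bases between such starts were not searched. The windows of CAD5 (chr4:16388941-16389190, minus strand) and CAD9 (chr4:18290968-18291217, plus strand) are printed from TAIR10.1 with the motif in capitals, since both genes rose in clf and lhp1.
CAD5 upstream: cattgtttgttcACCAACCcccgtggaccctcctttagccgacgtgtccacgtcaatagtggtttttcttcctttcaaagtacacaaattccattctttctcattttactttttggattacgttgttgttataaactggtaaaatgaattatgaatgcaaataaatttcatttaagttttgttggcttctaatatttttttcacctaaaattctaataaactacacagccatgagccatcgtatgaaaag
CAD9 upstream: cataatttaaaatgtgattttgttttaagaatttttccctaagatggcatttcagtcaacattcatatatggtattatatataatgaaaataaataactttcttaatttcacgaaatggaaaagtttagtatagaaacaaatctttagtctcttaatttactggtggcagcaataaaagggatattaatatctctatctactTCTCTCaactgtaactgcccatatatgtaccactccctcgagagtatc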

How the data were processed

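RNA-seq of whole seedlings was used, with samples grouped by title. Per the submitters' processing notes, TopHat, Cufflinks 2.1.1, Cuffdiff 2.1.1 and TAIR10 were used; the TopHat version, the strand setting, the library normalisation and how shared reads were divided are not stated by the sources at hand. Per the file headers, the authors deposited 1 FPKM value per genotype and locus, with a p-value and a q-value for each mutant against WT. WT FPKM differed between the tables at 0 of 31788 loci. Single libraries were not used here, so no test over libraries was run, and p-values reflect a spread that may be technical. Depth is unknown.

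Folds were computed from the FPKM values (pandas 2.3.3). The standard error implied by a p-value is the absolute log2 fold over its normal quantile (SciPy 1.17.1), and intervals are set at 95%. Simulated data were used to test the calculation only. Whether the deposited p-values follow a normal statistic was not tested, so the intervals hold only if they do. Table starts were read as counted from 0 (10377 single-gene starts then equal those of the reference, against 132 otherwise). Sequences, symbols and gene structure come from RefSeq TAIR10.1, with alignments by Biopython 1.88 and blastn 2.17.0. Where a gene has several loci, the one with the highest FPKM was counted. Beyond the members, named genes were the mutated genes, up to 6 called pathway genes per mutant with the largest folds, the 2 neighbouring loci per side and the 5 patterns nearest CAD2. Members, lists and rules were chosen with earlier results of these data known.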

Additional observations from a re-analysis of the deposited data

Results flagged for a closer look

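CAD4 was called in opposite directions in a pair of mutants, with a log2 fold change of 0.69 in pkl and -0.36 in clf, each against the same WT value. The difference between the mutants was not tested.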

How the results depend on the processing

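Counts of called members and pathway genes were recomputed with a q threshold of 0.01, with an unadjusted p under 0.05, with the deposited p adjusted again (Benjamini-Hochberg) within each table, with at least 1 FPKM in the higher genotype and with shared loci counted; member counts also with the p adjusted over the 3 tables and with a minimum 2-fold change. Of 36 such counts 32 stayed within 1.5 times the reported one. With the 2-fold minimum, the called members were 0 in clf and 0 in lhp1, by construction, as their folds are smaller. The 4 pathway genes called in clf became 1 at a q under 0.01 and 2 with adjustment within the table. By the authors' deposited q, the falls of ESB1 (0.0465), PAL1 (0.0400) and F5H (0.0332) lie near the threshold. That of REF1 (0.000661) does not. At a q under 0.01 the fall of CAD4 in clf is also lost. With shared loci counted, 3 members rose in clf and 3 in lhp1.

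Of 108 recomputed member folds (pseudocount 0.1 FPKM or none, median ratio scaled to 1, equal FPKM totals), 105 kept their sign. CAD7/CAD8 in pkl went to -0.0092 with the median ratio scaled and -0.022 with equal totals on the log2 scale, and CAD4 in lhp1 to 0.042 with equal totals; none of these was called. No paired analysis was possible because the tables hold 1 value per genotype, and for the same reason leaving out single libraries was not possible. The sizes of the CAD2 and CAD3 folds in pkl depend on the pseudocount: on the log2 scale they were 2.66 and 1.82 with 1 FPKM added, and 4.66 and 2.96 with none. Precision falls at low levels: the median implied standard error of a log2 fold in pkl was 0.653 for loci below 1 FPKM, 0.259 at 1 to 10 FPKM and 0.144 at 10 to 100 FPKM.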

Other observations

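The locus of AT2G21895, which has the same span as that of CAD3, was listed at 0 FPKM in pkl, clf and lhp1 and at 0.434 in WT and was not tested. The locus of AT4G39340, of the same span as CAD9, stood at 1.05 FPKM in pkl, 1.04 in clf and 0.585 in lhp1, was listed at 0 in WT and was not called in any mutant. Both lie against a member of the group of CAD2, CAD3 and CAD9, and the egg cell genes EC1.2 and EC1.3 follow CAD2.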
